A study of Mus musculus with 8 samples.

Results

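The genes described here are 10 genes of the response to oxidative stress and metal load, chosen by symbol from the 32285 genes counted: Nfe2l2, Nqo1, Gclc, Gclm, Txnrd1, Srxn1, Osgin1, Hmox1, Mt1 and Mt2. All 10 symbols were found. They were followed in the nuclear RNA of 8 male mouse livers, 1 single-nucleus library per mouse, from DIAMOND mice, a cross of 129A1/SvIm with C57BL/6J that develops fatty liver disease and liver cancer on a Western diet. All 8 mice received a Western diet, high in fat with sugar in the drinking water. In the WD tumour group (n = 3) it was kept up for 48 weeks and the mice had hepatocellular carcinoma. In the RD tumour (n = 2) and RD no tumour (n = 3) groups the diet was reversed to standard chow after 36 weeks, and the mice are grouped by the outcome, a carcinoma or none detected. Diets began at 2 months of age. The labels give an age of 48 weeks at the end, which does not match 48 weeks on the diet from that start. No mouse was kept on chow throughout, and no mouse without a carcinoma was kept on the Western diet. Diet and tumour thus cannot be told apart in WD tumour versus RD no tumour. The sources used here do not say whether the frozen piece of liver held tumour.

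Cells answer oxidative and electrophilic stress largely through the transcription factor NRF2, the product of Nfe2l2. KEAP1 marks NRF2 for degradation until its cysteines are modified. Stabilized NRF2 pairs with small MAF proteins at antioxidant response elements, and the repressor BACH1, released by heme, competes for such sites, as at Hmox1. Metallothioneins bind zinc and copper through many cysteines, and their genes are driven by the zinc sensor MTF1 at metal response elements and, in liver, also by glucocorticoids and acute-phase signals.

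Metallothionein RNA was lower in every mouse kept on the Western diet than in every mouse returned to chow. Mt1 and Mt2 lie in tandem on the plus strand of chromosome 8 in the mouse build GRCm38, Mt2 at chr8:94172664-94173568 and Mt1 at chr8:94179082-94180327, with 5513 bases between them. Nqo1, Osgin1 and Hmox1 are on the same chromosome. Because both genes moved together, the 250 bases before each RefSeq start (GRCm38.p6, plus strand) are shown, at chr8:94178839-94179088 for Mt1 and at chr8:94172368-94172617 for Mt2. Capitals mark matches on either strand to TGCNCNC, a loose form of the core of the metal response element. It allows any base at each N, so a match need not be such an element.
Mt1: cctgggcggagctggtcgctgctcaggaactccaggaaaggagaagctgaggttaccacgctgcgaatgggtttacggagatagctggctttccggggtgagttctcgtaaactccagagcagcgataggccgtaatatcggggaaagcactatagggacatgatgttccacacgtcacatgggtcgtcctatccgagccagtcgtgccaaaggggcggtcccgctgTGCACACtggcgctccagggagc
Mt2: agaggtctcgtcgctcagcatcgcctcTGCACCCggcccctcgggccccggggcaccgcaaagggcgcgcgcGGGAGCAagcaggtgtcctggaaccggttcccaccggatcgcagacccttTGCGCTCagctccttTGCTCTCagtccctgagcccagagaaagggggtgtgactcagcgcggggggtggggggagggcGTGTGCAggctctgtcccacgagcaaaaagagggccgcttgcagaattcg
The printed Mt1 stretch held 1 match and the Mt2 stretch 5, none of which overlapped another. In windows of 250 bases before and 50 bases after the start, Mt1 had 3 matches and Mt2 had 6. The Mt1 matches beyond the printed one all lay past the start. The counts thus depend on the start used, and bases farther past it were not searched. They do not show that Mt1 has fewer metal response elements than Mt2. The short motif TGCNCNC is common, since 51.0% of 32851 RefSeq promoter windows held at least 1 match. At least 3 matches were found in 7.1% of windows and at least 5 in 0.697%.

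The antioxidant response element was searched as TGACNNNGC on both strands in the same windows, of which 12.4% held a match. RefSeq windows were available for 8 of the 10 genes. One match lay in each of the windows of Nfe2l2, Gclm, Srxn1 and Mt2, and 1 match in 1 of the 3 Txnrd1 windows. The windows of Nqo1, Osgin1 and Mt1 held none. Such matches describe letters only. Bases outside the windows, before or past the start used, were not searched, and neither were enhancers farther away. A window without a match thus does not show that a gene lacks the element.

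Total counts ran from 17948627 to 34363108 UMIs (unique molecular identifiers, each standing for 1 captured RNA molecule) per library, from 6048 to 20000 nuclei with at least 300 genes. Levels are given as UMIs per 1000000 UMIs of the library or class (CPM), which are not adjusted for gene length and are compared here only between libraries or classes for the same gene. Nuclei were placed in a class, such as macrophage-like, by markers found in excess of what depth and the library's own profile would give. Hepatocyte-like nuclei numbered 1428 to 3667 per mouse, endothelial-like 504 to 1055, macrophage-like 247 to 707 and stellate/fibroblast-like 249 to 742, while 2403 to 13755 nuclei reached no class. Summed hepatocyte markers were about as high in the other nuclei (15850 to 29420 CPM) as in hepatocyte-like nuclei (17910 to 28860 CPM). The hepatocyte-like class is therefore one without markers of other cells rather than one rich in hepatocyte RNA, and in 6 of 8 mice its 10 leading genes by fold held none of its own markers. RNA of 13 secreted hepatocyte proteins, such as Apoa1, gauged RNA free in the suspension, and its ratio to hepatocyte-like nuclei had a median over mice of 1.17 in endothelial-like, 1.05 in macrophage-like and 1.15 in stellate/fibroblast-like nuclei. RD tumour 1 stood apart: its profile correlated with the other libraries at 0.746 to 0.856 across genes, against 0.905 or more among the other 7. Its neutrophil markers were at 2960 CPM against 31.9 to 912 CPM elsewhere, and its endothelial-like, macrophage-like and stellate/fibroblast-like nuclei had the lowest levels of their own markers of the 8 mice. Libraries shared 0.124% to 0.676% of the barcodes of the smaller one. Counts by class were compared with edgeR's quasi-likelihood test, in which the spread is between mice.

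No gene of the genome passed an adjusted p of 0.05 in whole libraries in any of the 3 comparisons (0.0% of 19087 genes tested), and so none of the 10 genes did. At an unadjusted p under 0.05, edgeR had 524 genes (2.75%) for WD tumour versus RD no tumour, 1279 (6.7%) for RD tumour versus RD no tumour and 1443 (7.56%) for WD tumour versus RD tumour. DESeq2 called 36, 64 and 109 genes at an adjusted p under 0.05 in the same order, and none of the 10. Mt1 and Mt2 were the members with an unadjusted p under 0.05, in both comparisons of WD tumour. Groups that did not overlap were a second description. In WD tumour versus RD no tumour, 2 of 10 genes (Mt1 and Mt2) were lower without overlap, against 3.8% of all genes, and none was higher, against 6.85%. In WD tumour versus RD tumour, 4 of 10 (Txnrd1, Osgin1, Mt1 and Mt2) were lower without overlap, against 11.0%, and none was higher, against 10.4%. In RD tumour versus RD no tumour, 2 of 10 (Txnrd1 and Hmox1) were higher without overlap, against 10.8%, and none was lower, against 5.85%.

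**Figure D1:**
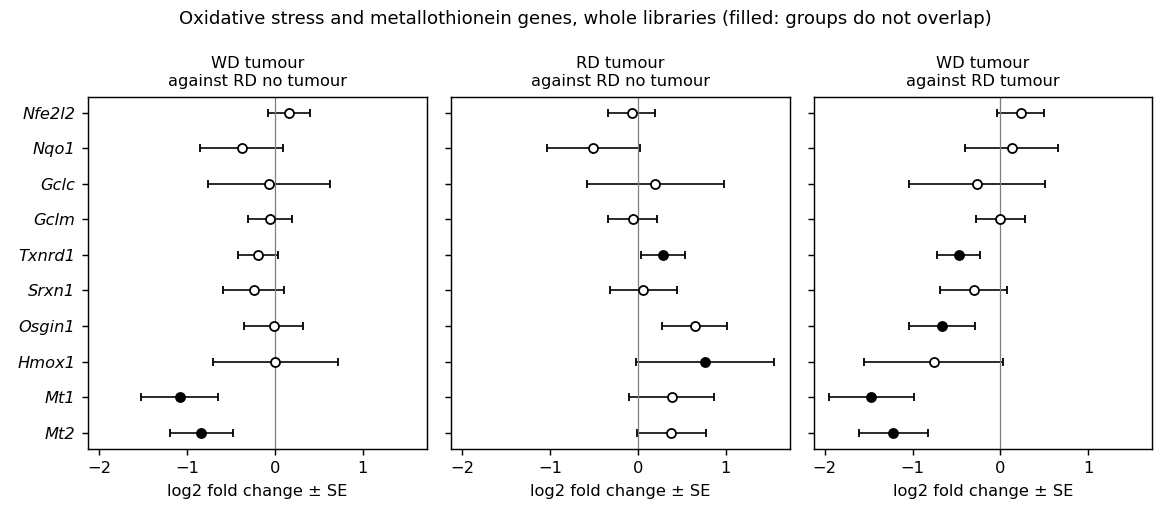
Log2 fold change (horizontal axis) of each of the 10 genes (vertical axis) in whole libraries for the 3 comparisons, with bars of 1 standard error from the edgeR fit over 8 mice; filled points are genes whose groups do not overlap. Mt1 and Mt2 lie farthest to the left in both comparisons of WD tumour, at -1.08 and -0.84 against RD no tumour and at -1.47 and -1.22 against RD tumour, and no point passed an adjusted p of 0.05.

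Mt1, which encodes metallothionein 1, was at 839, 1122 and 750 CPM in the 3 WD tumour libraries. It was at 3517 and 1456 CPM in RD tumour and at 1824, 2269 and 1470 CPM in RD no tumour. Every WD tumour library lay below every one of the 5 reversed-diet libraries, with or without a tumour. The log2 difference was -1.08 ± 0.44 (SE; adjusted p = 1.0) against RD no tumour and -1.47 ± 0.48 (adjusted p = 0.59) against RD tumour, by edgeR's quasi-likelihood test. Mt2, its neighbour, followed the same order of groups. Its levels were 232, 259 and 199.6 CPM in the WD tumour mice, 724.5 and 348 CPM in RD tumour, and 363, 501 and 331.5 CPM in RD no tumour. Again no WD tumour library reached a reversed-diet library. The differences were -0.84 ± 0.36 (adjusted p = 1.0) and -1.22 ± 0.39 (adjusted p = 0.59). Over whole libraries, 1.14% of all genes tested were lower in the 3 WD tumour libraries than in all 5 others, and 2 of the 10 genes were. None of the 10 was higher in all 3, against 2.39%.

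The size of the difference from RD tumour rested on RD tumour 1, which had the highest level of both genes. Without it, the log2 difference of Mt1 was -0.62 and that of Mt2 -0.52. Without RD tumour 2, when RD tumour 1 alone stood for its group, these differences were -1.98 and -1.67. Against RD no tumour, leaving out any 1 mouse gave -0.91 to -1.23 for Mt1. Among the reversed-diet mice the groups with and without a tumour overlapped. RD tumour differed from RD no tumour by 0.39 ± 0.48 for Mt1 (adjusted p = 0.746) and 0.38 ± 0.39 for Mt2 (adjusted p = 0.699), and both turned negative without RD tumour 1 (-0.47 and -0.32). Median mitochondrial shares per nucleus were 7.91% in WD tumour 1 and 7.51% in WD tumour 3, the libraries lowest in both metallothioneins, against 2.77% in WD tumour 2 and 1.3% to 3.28% in the reversed-diet libraries. Limited to nuclei of at most 5% mitochondrial UMIs, the difference from RD no tumour was as large (-1.21 for Mt1 and -0.92 for Mt2). This limit left unequal parts of the libraries. WD tumour 1, 2 and 3 retained 2284 of 6457, 4730 of 7068 and 3275 of 8871 nuclei. RD no tumour 1, 2 and 3 retained 9770 of 10275, 4357 of 6048 and 9106 of 10351. The part of nucleus or tissue quality in the metallothionein levels was not tested. The secreted hepatocyte RNA overlapped between the diets, at 29831 to 34186 CPM in the WD tumour mice and 23926 to 38281 CPM in the others. In a whole library, fewer cells of a type and less RNA per cell cannot be told apart.

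Within classes no gene passed the adjusted threshold either (0.0% in each of 12 comparisons). At an unadjusted p under 0.05, edgeR had 3.71%, 16.5% and 13.1% of 15859 genes in hepatocyte-like nuclei, in the order of comparisons given above, and 1.65%, 6.57% and 7.17% of 12655 genes in endothelial-like nuclei. In macrophage-like nuclei it had 2.51%, 7.62% and 10.2% of 11369 genes, and in stellate/fibroblast-like nuclei 3.22%, 6.51% and 8.19% of 11850 genes. DESeq2 called 2 to 963 genes per comparison in the classes, and none of the 10.

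In the classes fitted, the WD tumour mice again lay below the reversed-diet mice for Mt1 and Mt2. In hepatocyte-like nuclei Mt1 was at 762, 1397 and 707 CPM in the WD tumour mice, 3263 and 1610 CPM in RD tumour, and 1944, 1804 and 1554 CPM in RD no tumour. WD tumour 2 stood close to the reversed-diet libraries here, yet below each of them. The log2 difference from RD no tumour was -0.96 ± 0.42 for Mt1 and -0.73 ± 0.33 for Mt2 (adjusted p = 1.0 for both), and from RD tumour -1.22 ± 0.46 and -1.05 ± 0.36 (adjusted p = 0.378 for both). In hepatocyte-like nuclei 1.66% of genes were lower in WD tumour than in all 5 other libraries, and 3 of the 10 genes were, Txnrd1 being the other one.

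In endothelial-like nuclei Mt1 was at 771, 723 and 618 CPM in the WD tumour mice and at 1083 to 2836 CPM in the reversed-diet mice. In macrophage-like nuclei the levels were 686.5, 752 and 505 CPM against 906 to 3887 CPM, and in stellate/fibroblast-like nuclei 705, 709 and 668 CPM against 946 to 3050 CPM. The 3 WD tumour values were thus narrowly grouped and the reversed-diet values wide, with no overlap in any of the 3 classes. Lower than RD no tumour without overlap were Mt1 and Mt2 in endothelial-like (against 3.31% of genes) and macrophage-like nuclei (4.47%), and these with Txnrd1 in stellate/fibroblast-like nuclei (3.75%). Differences from RD no tumour were -1.38 ± 0.49 (adjusted p = 1.0) in endothelial-like, -1.18 ± 0.56 (adjusted p = 1.0) in macrophage-like and -1.39 ± 0.54 (adjusted p = 1.0) in stellate/fibroblast-like nuclei. Those of Mt2 were -1.13 ± 0.46, -0.96 ± 0.46 and -1.17 ± 0.51. Against RD tumour the differences of Mt1 were -1.32 ± 0.53, -1.86 ± 0.61 and -1.45 ± 0.59 in the same order of classes, and those of Mt2 -1.33 ± 0.50, -1.62 ± 0.50 and -1.24 ± 0.56, with adjusted p of 0.45 to 0.645. The genes below all 5 reversed-diet libraries made up 1.27%, 1.83% and 1.48% of those tested in the 3 classes, and of the 10 genes these were Mt1 and Mt2 each time. As secreted hepatocyte RNA was about equally high in every class, the share of free RNA in the metallothionein counts of non-hepatocyte classes was not tested.

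**Figure D2:**
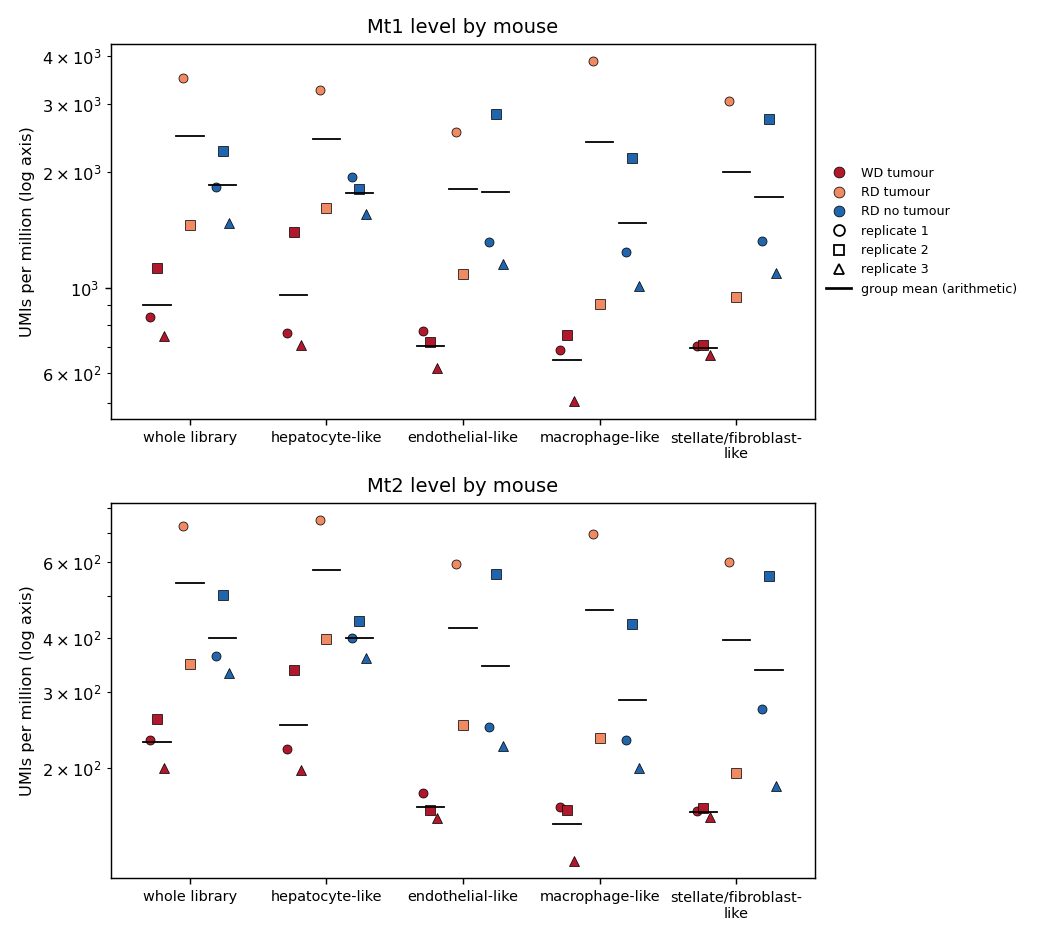
Mt1 (top) and Mt2 (bottom) in CPM (log axis) in whole libraries and 4 marker-gated classes (horizontal axis), 1 point per mouse, with colour for group, symbol for replicate number and a line at the arithmetic group mean. In each of the 5 columns the 3 WD tumour points lie below the 5 reversed-diet points, and RD tumour 1 is the highest point in most columns.

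In the smaller classes the picture was less uniform. Among T/NK-like and cholangiocyte-like nuclei both genes were again lower in every WD tumour mouse than in every other, with Mt1 at 574 to 786 CPM against 1129 to 2985 CPM in T/NK-like nuclei. Over genes with a mean of at least 10 UMIs a library, 0.746% of 6703 genes in T/NK-like and 1.65% of 6252 genes in cholangiocyte-like nuclei were lower in this way. Among B-like nuclei this held for Mt1 (591 to 1162 CPM against 1358 to 3454 CPM), as for 0.987% of 6076 genes. Mt2 overlapped there, WD tumour 2 being at 277 CPM and RD no tumour 3 at 176 CPM. In nuclei gated by globin and other erythroid markers Mt1 overlapped as well, at 838 to 1431 CPM in the WD tumour mice and 1094 to 3774 CPM in the others. The ratio of Mt1 to Mt2 UMIs in whole libraries was 3.62, 4.33 and 3.76 in WD tumour and 5.02, 4.53 and 4.43 in RD no tumour, which did not overlap. In RD tumour it was 4.85 and 4.18. In hepatocyte-like nuclei WD tumour (3.44, 4.15 and 3.58) and RD no tumour (4.86, 4.13 and 4.32) overlapped. The ratio is one of counts, not of transcript abundance, and it was not tested.

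Nfe2l2 RNA, which encodes NRF2 itself, overlapped between all groups of whole libraries. It was at 164, 174 and 162 CPM in the WD tumour mice, 108 and 182 CPM in RD tumour, and 169, 134 and 132 CPM in RD no tumour. The lowest level was that of RD tumour 1. The log2 differences were 0.16 ± 0.24 (adjusted p = 1.0) for WD tumour versus RD no tumour, -0.07 ± 0.26 (adjusted p = 0.919) for RD tumour versus RD no tumour and 0.23 ± 0.27 (adjusted p = 0.732) for WD tumour versus RD tumour. In hepatocyte-like nuclei WD tumour (174, 181.5 and 169.5 CPM) lay just above RD no tumour (166, 138 and 138 CPM), a difference of 0.19 ± 0.26 (adjusted p = 1.0). This was the 1 gene of 10 higher there without overlap, against 7.97% of all genes. In endothelial-like nuclei it was also higher without overlap, at 161, 179 and 182.5 CPM against 142, 117 and 128 CPM, a difference of 0.39 ± 0.23 (adjusted p = 1.0), where 5.81% of genes were. NRF2 is controlled mainly through protein stability, which these RNA counts do not measure.

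Gclc and Gclm encode the catalytic and the modifier subunit of glutamate-cysteine ligase, the first enzyme of glutathione synthesis. Gclc varied more between mice of a group than between groups. It was at 228.5, 115 and 146 CPM in the WD tumour mice, 67.0 and 346 CPM in RD tumour, and 57.8, 229 and 206 CPM in RD no tumour. Both the highest and a very low library belonged to RD tumour, so no group stood apart. The log2 differences were -0.07 ± 0.70, 0.20 ± 0.78 and -0.27 ± 0.78 (adjusted p = 1.0, 0.92 and 0.896) for WD tumour versus RD no tumour, RD tumour versus RD no tumour and WD tumour versus RD tumour. In macrophage-like nuclei Gclc was at 56.7, 66.8 and 79.5 CPM in the WD tumour mice and at 68.0 and 213 CPM in RD tumour, a difference of -1.01 ± 0.64 (adjusted p = 0.565), which was 0.04 without RD tumour 2.

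Gclm was steadier, at 127, 111 and 123 CPM in the WD tumour mice, 98.8 and 147 CPM in RD tumour, and 101, 134 and 128 CPM in RD no tumour. The groups overlapped, and the 3 log2 differences were -0.06 ± 0.25 (adjusted p = 1.0), -0.06 ± 0.28 (adjusted p = 0.937) and 0.00 ± 0.28 (adjusted p = 1.0). In hepatocyte-like nuclei WD tumour (124, 125 and 119 CPM) lay below RD no tumour (134, 147 and 129 CPM), a difference of -0.22 ± 0.23 (adjusted p = 1.0). In that comparison 5 of the 10 genes, namely Gclm, Txnrd1, Srxn1, Mt1 and Mt2, were lower without overlap, against 4.44% of all genes. In stellate/fibroblast-like nuclei Gclm was at 84.9, 60.9 and 87.1 CPM in the WD tumour mice and 106 and 94.9 CPM in RD tumour (-0.31 ± 0.34, adjusted p = 0.773), one of 4 of the 10 genes lower without overlap there, where 12.5% of genes were.

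Txnrd1 encodes cytosolic thioredoxin reductase, which keeps thioredoxin reduced with NADPH. Its levels were 66.4, 73.3 and 72.8 CPM in the WD tumour mice, 110 and 88.5 CPM in RD tumour, and 70.4, 75.4 and 88.2 CPM in RD no tumour. Both RD tumour libraries were above all others, RD tumour 2 by a narrow margin. The log2 differences were 0.28 ± 0.25 for RD tumour versus RD no tumour (adjusted p = 0.663), -0.48 ± 0.25 for WD tumour versus RD tumour (adjusted p = 0.59) and -0.19 ± 0.23 for WD tumour versus RD no tumour (adjusted p = 1.0). Hepatocyte-like nuclei gave full separation of the 3 groups for this gene: 70.0, 67.8 and 68.2 CPM in the WD tumour mice, 73.5, 79.9 and 90.5 CPM in RD no tumour, and 112 and 97.6 CPM in RD tumour. No difference passed the threshold, at -0.31 ± 0.20 for WD tumour versus RD no tumour (adjusted p = 1.0), 0.16 ± 0.22 for RD tumour versus RD no tumour (adjusted p = 0.697) and -0.47 ± 0.22 for WD tumour versus RD tumour (adjusted p = 0.389). Hepatocyte-like nuclei had 3 of the 10 genes, Txnrd1, Osgin1 and Hmox1, higher in RD tumour compared with RD no tumour without overlap, against 22.2% of all genes. They had 5, these 3 with Mt1 and Mt2, lower in WD tumour than in RD tumour, against 19.0%. The share of all genes that separate the 3 groups in full, as Txnrd1 did, was not counted.

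In the other classes Txnrd1 separated groups in a different comparison each time. Endothelial-like nuclei had 43.1, 57.5 and 54.5 CPM in the WD tumour mice and 113 and 62.1 CPM in RD tumour (-0.72 ± 0.36, adjusted p = 0.645). Stellate/fibroblast-like nuclei had 52.4, 49.95 and 44.4 CPM in the WD tumour mice and 68.9, 60.7 and 70.6 CPM in RD no tumour (-0.51 ± 0.32, adjusted p = 1.0). Macrophage-like nuclei had 103 and 120 CPM in RD tumour, just below 122, 123 and 129 CPM in RD no tumour (-0.20 ± 0.30, adjusted p = 0.837). In WD tumour versus RD no tumour the log2 difference was negative in all 4 classes, at -0.51 in stellate/fibroblast-like, -0.34 in endothelial-like, -0.31 in hepatocyte-like and -0.19 in macrophage-like nuclei (adjusted p = 0.9996 to 1.0). In macrophage-like nuclei of RD tumour versus RD no tumour, Txnrd1 was the 1 gene of 10 lower without overlap, against 9.75% of all genes.

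Srxn1 encodes sulfiredoxin, which restores overoxidized peroxiredoxins, and was counted sparsely (104 to 281 UMIs per library). It was at 8.08, 4.62 and 6.30 CPM in the WD tumour mice, 6.90 and 9.19 CPM in RD tumour, and 6.55, 6.49 and 8.72 CPM in RD no tumour. The groups overlapped, with log2 differences of -0.24 ± 0.34, 0.07 ± 0.38 and -0.31 ± 0.38 (adjusted p = 1.0, 0.949 and 0.751) in the order used above. In hepatocyte-like nuclei WD tumour (6.70, 5.21 and 4.65 CPM) was below RD no tumour (6.87, 7.35 and 7.26 CPM), by -0.44 ± 0.33 (adjusted p = 1.0). Nqo1 encodes a quinone reductase widely used as an indicator of NRF2 activity, and it was barely detected. Its 51 to 189 UMIs per library came to 2.90, 2.27 and 4.31 CPM in the WD tumour mice, 2.30 and 3.64 CPM in RD tumour, and 2.78, 3.13 and 5.87 CPM in RD no tumour. No group stood apart, and the differences were -0.38 ± 0.47, -0.51 ± 0.53 and 0.13 ± 0.53 (adjusted p = 1.0, 0.706 and 0.931). The low counts of both genes limit the precision of these differences.

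Osgin1 encodes an oxidative stress-induced growth inhibitor. It was at 25.1, 32.1 and 22.4 CPM in the WD tumour mice, 35.9 and 49.4 CPM in RD tumour, and 22.5, 17.3 and 37.0 CPM in RD no tumour. RD tumour was above WD tumour in both mice, and RD no tumour 3 reached into the RD tumour range. The log2 differences were -0.66 ± 0.37 for WD tumour versus RD tumour (adjusted p = 0.59), 0.65 ± 0.37 for RD tumour versus RD no tumour (adjusted p = 0.612) and -0.02 ± 0.34 for WD tumour versus RD no tumour (adjusted p = 1.0). WD tumour lay below RD tumour without overlap in each of the 4 classes fitted. In hepatocyte-like nuclei it was at 24.7, 42.0 and 22.0 CPM in the WD tumour mice, 47.4 and 54.9 CPM in RD tumour, and 33.1, 19.9 and 40.0 CPM in RD no tumour, with differences of -0.67 ± 0.37 (adjusted p = 0.42) from RD tumour and, for RD tumour versus RD no tumour, 0.52 ± 0.37 (adjusted p = 0.46).

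In endothelial-like nuclei Osgin1 was at 13.5, 12.6 and 15.7 CPM in the WD tumour mice, 24.6 and 34.1 CPM in RD tumour, and 5.75, 7.71 and 22.4 CPM in RD no tumour. In macrophage-like nuclei it was at 10.7, 12.5 and 14.2 CPM, 34.7 and 26.7 CPM, and 11.9, 8.56 and 22.4 CPM in the same order of groups. RD tumour was the highest group without overlap in both classes. The differences for WD tumour versus RD tumour were -1.02 ± 0.55 (adjusted p = 0.645) and -1.24 ± 0.46 (adjusted p = 0.474), and those for RD tumour versus RD no tumour 1.19 ± 0.54 (adjusted p = 0.678) and 1.05 ± 0.45 (adjusted p = 0.614). In stellate/fibroblast-like nuclei WD tumour (15.1, 1.82 and 12.1 CPM) was again below RD tumour (21.6 and 37.2 CPM), by -1.59 ± 0.69 (adjusted p = 0.606). None of these passed the threshold. Without overlap, 12.4% of genes in endothelial-like and 10.5% in macrophage-like nuclei were higher in RD tumour compared with RD no tumour, and 11.4% and 14.0% lower in WD tumour than in RD tumour.

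Hmox1 encodes heme oxygenase 1, which opens the heme ring to biliverdin, iron and carbon monoxide, and it is abundant in macrophages that clear red cells. It was at 13.2, 69.7 and 10.0 CPM in the WD tumour mice, 51.7 and 52.0 CPM in RD tumour, and 41.4, 34.0 and 13.8 CPM in RD no tumour. WD tumour held the highest library and the 2 lowest. The log2 differences were 0.00 ± 0.71 for WD tumour versus RD no tumour (adjusted p = 1.0), 0.77 ± 0.79 for RD tumour versus RD no tumour (adjusted p = 0.699) and -0.76 ± 0.79 for WD tumour versus RD tumour (adjusted p = 0.708). Without WD tumour 2 the first of these was -1.34. WD tumour 2 also had the most globin RNA, 30162 CPM against 1167 to 7554 CPM elsewhere. Macrophage markers were summed to 452.5, 871 and 469.5 CPM in the WD tumour mice, 655.5 and 605 CPM in RD tumour, and 957, 552 and 340 CPM in RD no tumour, so that the 3 libraries lowest in Hmox1 were also the 3 lowest in macrophage markers. The part of either in the Hmox1 level was not tested.

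**Figure D3:**
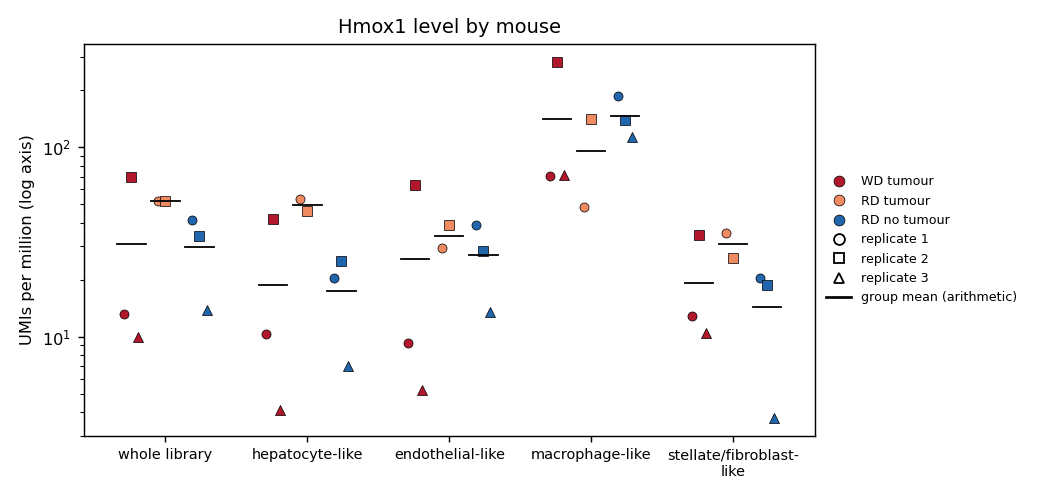
Hmox1 in CPM (log axis) in whole libraries and 4 marker-gated classes (horizontal axis), 1 point per mouse, with colour for group, symbol for replicate number and a line at the arithmetic group mean. The macrophage-like column is the highest in 7 of 8 mice, and WD tumour 2 is the highest point of the WD tumour group in every column.

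Macrophage-like nuclei carried the highest Hmox1 of the 4 classes. There it was at 70.5, 283 and 71.0 CPM in the WD tumour mice, 48.6 and 142 CPM in RD tumour, and 186, 138.5 and 113 CPM in RD no tumour. Hepatocyte-like nuclei of the same mice had 10.3, 41.5 and 4.11 CPM, 53.2 and 45.9 CPM, and 20.4, 25.0 and 7.02 CPM. The macrophage-like level was above the hepatocyte-like one in 7 of 8 mice, the exception being RD tumour 1, with a median ratio of 6.83 and a range of 0.913 to 17.3. In a fit of class against class within mice, added after these levels were seen, the log2 difference was 2.46 ± 0.28 (adjusted p = 3.1e-08 over 12678 genes, edgeR). Of those genes 28.3% were higher in macrophage-like nuclei by the same test. Secreted hepatocyte RNA, the gauge of free RNA, had a median ratio of 1.05 between the same classes. Between groups, Hmox1 in hepatocyte-like nuclei was higher in both RD tumour mice than in all others. The log2 difference was 1.31 ± 0.85 against RD no tumour (adjusted p = 0.427) and -1.31 ± 0.85 for WD tumour versus RD tumour (adjusted p = 0.463). Without overlap, 22.2% of genes there were higher in RD tumour compared with RD no tumour, and 19.0% were lower in WD tumour than in RD tumour. In stellate/fibroblast-like nuclei the RD tumour mice, at 35.4 and 26.1 CPM, were above RD no tumour, at 20.4, 18.8 and 3.72 CPM (0.91 ± 0.69, adjusted p = 0.726), where 13.5% of genes were higher without overlap.

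The same fit placed most of the other genes lower outside the hepatocyte-like class. Gclc was lower by -1.04 ± 0.21 in endothelial-like (adjusted p = 0.000125), -1.29 ± 0.21 in macrophage-like (adjusted p = 7.9e-06) and -1.30 ± 0.21 in stellate/fibroblast-like nuclei (adjusted p = 9.9e-06), and in 7 of 8 mice in each class. Osgin1 was lower in 8 of 8 mice in all 3 classes, by -1.26 ± 0.23, -1.23 ± 0.24 and -1.09 ± 0.24 (adjusted p = 4.3e-05, 7.8e-05 and 0.000417). Gclm too was lower in 8 of 8 mice in all 3, by -0.58 ± 0.12, -0.75 ± 0.12 and -0.74 ± 0.12 (adjusted p = 0.000166, 7.0e-06 and 1.2e-05). Among cholangiocyte-like nuclei, which were not fitted, Osgin1 was above the hepatocyte-like level in 7 of 8 mice, with a median ratio of 1.56.

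Mt1 was lower than in hepatocyte-like nuclei by -0.44 ± 0.14, -0.57 ± 0.14 and -0.40 ± 0.14 (adjusted p = 0.0099, 0.00112 and 0.0189) in endothelial-like, macrophage-like and stellate/fibroblast-like nuclei, in 6, 6 and 7 of 8 mice. Mt2 was lower by -0.61 ± 0.13, -0.77 ± 0.13 and -0.63 ± 0.13 (adjusted p = 0.000219, 9.7e-06 and 0.000177). These falls were small beside those of Gclc and Osgin1. Txnrd1 was the 1 gene besides Hmox1 to be higher in macrophage-like nuclei, by 0.35 ± 0.13 (adjusted p = 0.0205; 7 of 8 mice), and it was lower in endothelial-like (-0.49 ± 0.13, adjusted p = 0.00249) and stellate/fibroblast-like nuclei (-0.44 ± 0.13, adjusted p = 0.00673). Nfe2l2 was lower in stellate/fibroblast-like nuclei in 8 of 8 mice, by -0.66 ± 0.09 (adjusted p = 7.3e-07), and its differences in endothelial-like (-0.20 ± 0.09, adjusted p = 0.0542) and macrophage-like nuclei (0.19 ± 0.09, adjusted p = 0.0697) missed the threshold. Without RD tumour 1 both passed it, at -0.29 (adjusted p = 0.00233) and 0.21 (adjusted p = 0.0196). In that fit 4837 of 12773 genes were lower in endothelial-like and 3832 higher in macrophage-like nuclei by the same test. Srxn1 differed by -0.15 to -0.29, within its error of 0.23 to 0.25 or little beyond (adjusted p = 0.324 to 0.655), and Nqo1 was too sparse to be fitted. Among all genes 32.2%, 35.6% and 31.5% were lower in the 3 classes by this test.

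**Figure D4:**
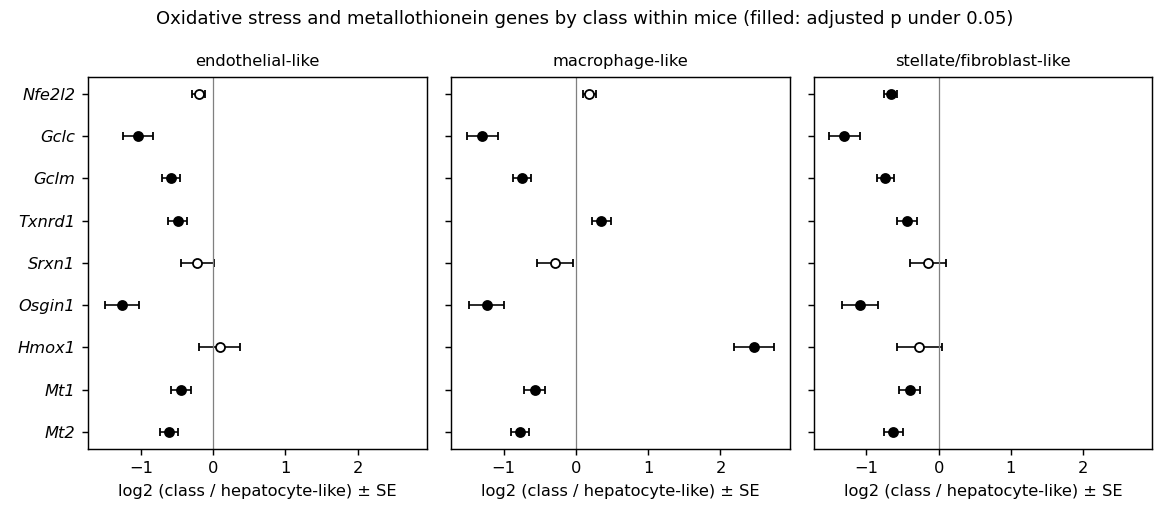
Log2 difference of each class from hepatocyte-like nuclei within mice (horizontal axis) for 9 of the 10 genes (vertical axis), with bars of 1 standard error from edgeR over 8 mice; filled points have an adjusted p under 0.05. Hmox1 in macrophage-like nuclei, at 2.46, is the point farthest to the right, and Gclc and Osgin1 lie near -1 or below in all 3 classes.

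Other genes of these pathways gave the surroundings of the set, from lists by role. Of 12 partners and repressors of NRF2, none passed the adjusted threshold in any comparison, and 10 of 12 were lower in WD tumour than in RD tumour, with a median log2 difference of -0.38 against -0.01 over all genes tested. Without RD tumour 1, 5 of 12 were lower, with a median of 0.03 against 0.07 over all genes. With all 8 libraries, their leading genes in WD tumour versus RD tumour were Mafk, a small MAF partner (-1.51 ± 0.60, adjusted p = 0.59), and Sqstm1, whose product p62 holds KEAP1 (-0.75 ± 0.28, adjusted p = 0.59). Mafk was at 45.2 CPM in RD tumour 1 and at 7.19 to 13.5 CPM in the other 7 libraries. Sqstm1 had a different pattern, at 118, 132 and 139 CPM in the WD tumour mice and 165 to 281 CPM in the 5 reversed-diet libraries, the 1 gene of 12 lower than all of these without overlap, against 1.14% of all genes. Keap1 and Bach1, named for their roles given above, overlapped between groups, Keap1 at 22.9 to 48.0 CPM and Bach1 at 45.0 to 117 CPM over the 8 libraries.

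Of 25 further NRF2 targets, 24 passed the filter on low counts, and none of these passed the adjusted threshold. Compared with RD tumour, WD tumour had 16 of them lower and 8 higher, with a median of -0.80. This direction rested on RD tumour 1, without which 9 were lower and 15 higher, with a median of 0.17. That library was the highest of all 8 for 12 of the 25 genes and the lowest for 8. In RD tumour versus RD no tumour 14 were higher and 10 lower, with a median of 0.63 against 0.00 over all genes, and without RD tumour 1, 8 were higher and 16 lower, with a median of -0.15. Cbr3, a carbonyl reductase, led both comparisons (2.39 ± 0.86 and -2.58 ± 0.87, adjusted p = 0.612 and 0.59) through the same library, at 22.8 CPM in RD tumour 1 and 1.46 to 3.50 CPM elsewhere. In WD tumour versus RD no tumour 11 were higher and 13 lower, with a median of -0.10. Ugdh, which makes UDP-glucuronate, was among the 2 leading genes there (-1.03 ± 0.43, adjusted p = 1.0), at 60.2 to 77.8 CPM in the WD tumour mice and 111 to 150.5 CPM in RD no tumour. In RD tumour Ugdh was at 54.8 and 198 CPM, on either side of the WD tumour mice. Of 21 other antioxidant enzymes none passed, and their medians were 0.08, 0.15 and 0.06 in WD tumour versus RD no tumour, RD tumour versus RD no tumour and WD tumour versus RD tumour. Without RD tumour 1 the last 2 of these were -0.16 and 0.24.

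Of 16 genes of metal handling 14 were tested and none passed, with medians of -0.04, -0.01 and -0.04. Slc30a1 encodes a zinc exporter whose gene, like Mt1 and Mt2, is a known target of MTF1. Singled out after its values were seen, it was at 14.9, 14.9 and 15.1 CPM in the WD tumour mice and 16.5 to 25.0 CPM in the 5 reversed-diet libraries, the 1 gene of these 16 lower than all of them without overlap, against 1.14% of all genes. Mtf1 itself overlapped, at 29.6 to 33.0 CPM in the WD tumour mice and 24.9 to 33.4 CPM in the others. The other mouse metallothioneins, Mt3 and Mt4, had at most 0.175 CPM in any library. Glucocorticoid-responsive genes, listed because these hormones also drive metallothioneins, had no call among 8. Sgk1 (-1.35 ± 0.36, adjusted p = 0.59) and Igfbp1 (-2.39 ± 0.91, adjusted p = 0.59) led in WD tumour versus RD tumour, both with their highest level in RD tumour 1 (84.0 and 1818 CPM). Nr3c1, the receptor, also singled out after its values were seen, was at 243 to 336 CPM in the WD tumour mice and 176 to 220 CPM in the 5 others, the 1 gene of 8 higher without overlap, against 2.39% of all genes. Of 10 genes of heme handling none passed. Cd163, the macrophage receptor for hemoglobin bound to haptoglobin, led in WD tumour versus RD no tumour (-1.51 ± 0.38, adjusted p = 1.0), at 2.95, 6.04 and 3.58 CPM against 11.9, 12.7 and 9.94 CPM. In RD tumour Cd163 was at 4.95 CPM, within the WD tumour range, and at 10.6 CPM.

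The genes with the pattern most like each of 5 members over the 8 libraries were taken as the 3 highest Spearman coefficients among 10466 genes with a mean of at least 10 CPM. For Mt1 they were Tmem59 and Sfr1 (both 1.0) and Mt2 (0.976), and for Mt2 they were Mt1, Ramp2 and Tmem59 (0.976 each). Hmox1 was followed by Gm16982 (1.0), Gm42726 and Ankrd52 (0.976 each), Nfe2l2 by Cachd1, Palld and Atxn10 (1.0 each), and Nqo1 by 2610008E11Rik (1.0), Srrm4os and Gm48226 (0.976 each). With 8 libraries that share their depth and composition between genes, coefficients of this height are reached by several genes and serve as a description.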

How the data were processed

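Counts are the unit throughout. Per the file headers, the deposited matrices, 1 for each of 8 mice, hold whole UMI counts for every gene in every barcode and come from Cell Ranger 7.0.0. The build, mm10, is given in the submitters' processing notes. Snap-frozen liver and the Chromium 3′ v3.1 chemistry are given per the labels' protocols. Whether intronic reads were counted, and how barcodes were called, is not given in the sources used here, and counts are not adjusted for free RNA.

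Of 80575 barcodes, 79446 with at least 300 genes were kept. Doublets were not removed. Scrublet (scanpy 1.11.5) calls were removed as an alternative. A nucleus joined a class with at least 3 of its markers, at least 2 more than expected from its depth and the library's profile, and no second class with an excess above 0.5 of the first. A hepatocyte-like nucleus needed at least 5 hepatocyte markers, no fewer than expected, and every other excess below 1. These thresholds were set after the data were seen, because globin and neutrophil granule RNA occurred in nearly all nuclei. In classes with at least 20 nuclei in a mouse, the 10 leading genes by fold held no marker of another class. The gate itself limits such markers, so this does not test the classes. The 10 leading genes held none of the class's own markers in 6 of 8 mice for hepatocyte-like and 4 of 8 for macrophage-like nuclei. The same was so in 1 of 8 mice for endothelial-like, 1 of 8 for stellate/fibroblast-like and 1 of 4 for neutrophil-like nuclei. List medians without each RD tumour mouse, and overlap in small classes, were added after the data were seen.

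Counts were summed per mouse and class and tested with edgeR 4.0.16 (TMM, filterByExpr, quasi-likelihood, Benjamini-Hochberg adjustment over all genes tested, threshold 0.05) over the 3 groups. All 10 genes passed the filter in whole libraries and hepatocyte-like nuclei, 9 in endothelial-like and macrophage-like and 8 in stellate/fibroblast-like nuclei. The class-against-class fit held the mouse as a block. Both fits were run on simulated counts with the same spread for every gene and no outlying mouse. The class fit was simulated for hepatocyte-like and macrophage-like nuclei only. Such a run does not gauge the error of the fits in these data. Alternatives were DESeq2 1.42.0, other size factors, filters and gates, 2-group fits, a replicate block and each mouse left out.

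Named genes were the 10, with fold changes in a class where groups did not overlap or the log2 change reached 1 in size, and up to 2 leading genes per other list. The genes and lists were chosen with earlier results of these data known. Nothing in the sources used here says that replicate numbers pair mice. Same-numbered mice of different groups correlated at -0.624 to 0.471 in their deviations from group means, and different-numbered mice at -0.593 to 0.71. In groups this small, such deviations cannot show whether mice are paired. Positions are from GENCODE M21 (GRCm38), promoters from RefSeq.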

Additional observations from a re-analysis of the deposited data

How the results depend on the processing

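Of 1136 recomputed fold changes of single genes, over 68 results, 1085 kept their direction and their side of the threshold, 44 turned in direction and 7 came to pass the threshold. None of the 344 recomputed fold changes of Mt1 and Mt2 in comparisons of WD tumour turned, and the 7 that passed were all theirs, without RD tumour 2. The counts of called genes were 0 in all 15 comparisons. DESeq2 called 36, 64 and 109 genes in whole libraries, 68, 963 and 227 in hepatocyte-like, 3, 9 and 24 in endothelial-like, 2, 29 and 71 in macrophage-like and 21, 3 and 23 in stellate/fibroblast-like nuclei (WD tumour versus RD no tumour, RD tumour versus RD no tumour, WD tumour versus RD tumour). With no low-count filter, 5 genes passed in macrophage-like nuclei (WD tumour versus RD tumour) and 7 and 3 in stellate/fibroblast-like nuclei (both comparisons of WD tumour). With at most 5% mitochondrial UMIs, 1 passed in macrophage-like nuclei (WD tumour versus RD tumour).

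Leaving out 1 mouse gave 0 to 4569 calls for RD tumour versus RD no tumour and 0 to 4438 for WD tumour versus RD tumour in whole libraries, 0 to 5954 and 0 to 5016 in hepatocyte-like, 0 to 1372 and 0 to 1383 in endothelial-like, 0 to 979 and 0 to 935 in macrophage-like and 0 to 1267 and 0 to 1380 in stellate/fibroblast-like nuclei. The high ends came without RD tumour 2, when RD tumour 1 alone stood for its group and was assumed to vary like the others; without RD tumour 1, whole libraries gave 11 calls for RD tumour versus RD no tumour. In whole libraries without RD tumour 2, the median over all genes was -0.12 for RD tumour versus RD no tumour. It was 0.11 for WD tumour versus RD tumour. For WD tumour versus RD no tumour the ranges were 0 to 1 in endothelial-like and 0 to 2 in stellate/fibroblast-like nuclei, the calls coming without RD no tumour 1.

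Fold changes that turned were near 0 or rested on 1 mouse. In whole libraries, for WD tumour versus RD no tumour, the ranges over left-out mice were -0.67 to 0.0837 for Nqo1, -0.49 to 0.23 for Gclc, -0.21 to 0.0248 for Gclm, -0.24 to 0.41 for Osgin1 and -1.34 to 0.40 for Hmox1. For RD tumour versus RD no tumour they were -0.44 to 0.21 for Nfe2l2, -1.35 to 0.92 for Gclc, -0.33 to 0.15 for Gclm, -0.11 to 0.30 for Srxn1, -0.47 to 0.90 for Mt1 and -0.32 to 0.83 for Mt2. For WD tumour versus RD tumour they were -0.051 to 0.61 for Nfe2l2, -0.19 to 0.45 for Nqo1, -0.99 to 1.28 for Gclc and -0.21 to 0.27 for Gclm, and for Gclc in macrophage-like nuclei -1.58 to 0.0427. Hmox1 (WD tumour versus RD no tumour) was -0.0131 with DESeq2, -0.0126 with RLE size factors, -0.0215 without Scrublet calls, -0.08 with at least 500 genes, -0.19 with at most 5% mitochondrial UMIs and -0.0022 with no low-count filter. With at most 5% mitochondrial UMIs, Gclc was 0.0789 and Osgin1 0.05 in that comparison, and with no low-count filter Gclm was 0.0051 for WD tumour versus RD tumour. The cause was not tested. With the replicate number as a block, Gclc (0.30), Osgin1 (0.0625) and Hmox1 (-0.30) turned for WD tumour versus RD no tumour and Gclc (0.12) and Nqo1 (-0.21) for WD tumour versus RD tumour, and the counts of calls stayed 0 in all 15 comparisons. Nothing in the sources used here says that the numbers pair mice. Nqo1 and Srxn1 are limited by their counts.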

Other observations

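Hamp encodes hepcidin, the liver hormone that limits iron release into blood, and it was the leading gene of the metal list in both comparisons of WD tumour (-1.68 ± 1.48 against RD no tumour, adjusted p = 1.0; -2.36 ± 1.61 against RD tumour, adjusted p = 0.61). It was at 793, 1.60 and 914 CPM in the WD tumour mice, 1878 and 4274 CPM in RD tumour, and 807, 2418 and 2106 CPM in RD no tumour. The value of 1.60 CPM was that of WD tumour 2, the library with the most globin RNA (30162 CPM) and the highest whole-library Hmox1 (69.7 CPM). These values are given side by side with no test, and Hamp is named because it leads its list.

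Txnrd2, which encodes the mitochondrial thioredoxin reductase, was likewise measured in whole libraries. It was at 26.9, 27.8 and 28.6 CPM in the WD tumour mice, 9.90 and 23.9 CPM in RD tumour, and 17.7, 22.7 and 25.1 CPM in RD no tumour, the 1 gene of 21 antioxidant enzymes higher in WD tumour than in all 5 other libraries, where 2.39% of all genes were. It was singled out after its values were seen and was not tested in this way.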
